A study of Mus musculus with 24 samples.

Results

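The immediate early response genes described here were 10 genes picked by symbol, and their values were read from the rows of the deposited count and FPKM tables that carry those symbols. They were the AP-1 subunits Fos, Fosb, Jun and Junb, the stress-activated factor Atf3, the zinc finger factor Egr1, the early response genes Ier2 and Ier3, and the feedback genes Dusp1 and Zfp36. Each symbol matched 1 row, so the members were 10 of the 34471 genes with a count in at least 1 library and of the 56691 genes listed. RNA of the distal jejunum was sequenced for 24 mice in 8 groups, 3 mice in each, set by sex, by genotype (wild type or Ptk6-/-) and by drinking water. Control mice drank regular water, and the treated mice had 100 mM succinate in their water over 7 days. All mice were 9 to 11 weeks old and came from different litters of a single colony, and the Ptk6-/- strain had been backcrossed to C57BL/6. Ptk6, which codes for an intracellular tyrosine kinase, was disrupted in the germline, so it was lost in every cell type and from before birth. No allele or agent other than these was named for any group.

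Immediate early genes are transcribed without new protein synthesis when a growth factor, cytokine, stress signal or mechanical stimulus reaches a cell. MAP kinases switch on factors already bound at their promoters, the transcripts appear within minutes, and most of them decay quickly. Proteins of the Fos and Jun families pair to form AP-1, whereas Dusp1 removes phosphate from MAP kinases and Zfp36 (tristetraprolin) directs AU-rich transcripts to decay, so the same response carries its own brakes. In solid tissue these genes are also known to respond to dissection, warming and delay before freezing, which is why each mouse was read on its own as well as in its group. The time between death and preservation of the tissue is not given in the sources used here.

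Promoters of 8 members were matched by symbol in RefSeq's annotation of GRCm38.p6, as the 250 bases before the transcription start. Those of Fos, Fosb and Dusp1 are shown because the comparisons turn most on these genes, and that of Zfp36 because it alone held a CArG box. Capitals mark the letters searched on both strands: TGACGTCA (the cyclic AMP response element), TGACG (its core, which also lies inside the full element and was added to the search after the sequences were seen), TATAAA, GCGNGGGCG (the EGR motif) and, in Zfp36, a CArG box (bound by serum response factor). TGANTCA, the AP-1 motif, was searched too.
Fos, chr12:85473640-85473889 (plus strand): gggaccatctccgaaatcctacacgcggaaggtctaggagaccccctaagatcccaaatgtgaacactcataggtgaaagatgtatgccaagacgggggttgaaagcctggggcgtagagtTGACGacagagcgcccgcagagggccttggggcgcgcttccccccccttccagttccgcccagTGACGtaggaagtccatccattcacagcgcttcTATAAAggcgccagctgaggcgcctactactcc
Fosb, chr7:19310046-19310295 (minus strand): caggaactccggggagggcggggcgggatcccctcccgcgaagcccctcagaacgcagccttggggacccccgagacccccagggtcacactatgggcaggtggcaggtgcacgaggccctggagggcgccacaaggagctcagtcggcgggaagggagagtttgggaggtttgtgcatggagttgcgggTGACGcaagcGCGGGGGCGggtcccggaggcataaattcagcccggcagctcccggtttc
Dusp1, chr17:26508473-26508722 (minus strand): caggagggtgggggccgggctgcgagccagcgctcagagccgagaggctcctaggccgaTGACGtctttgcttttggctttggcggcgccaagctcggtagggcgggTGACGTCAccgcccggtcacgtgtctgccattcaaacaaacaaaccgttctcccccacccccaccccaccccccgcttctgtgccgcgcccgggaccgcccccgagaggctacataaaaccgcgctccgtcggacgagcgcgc
Zfp36, chr7:28379229-28379478 (minus strand): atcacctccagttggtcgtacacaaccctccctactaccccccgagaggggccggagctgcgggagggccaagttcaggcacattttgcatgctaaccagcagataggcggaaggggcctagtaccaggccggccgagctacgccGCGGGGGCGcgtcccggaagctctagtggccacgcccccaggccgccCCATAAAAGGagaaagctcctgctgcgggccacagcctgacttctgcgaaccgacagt

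In Fos the core TGACG began 129 and 66 bases before the start, and TATAAA 33 bases before it. Fosb held the core at 60 and the EGR motif at 50 bases before its start. Dusp1 held the full element at 143 and a further core at 191 bases before the start, and Zfp36 held the EGR motif at 105 and the CArG box at 58 bases before it. Among the other members, Junb held the core at 106 and Atf3 at 7 bases before the start (on the opposite strand in Atf3), and none of these letters lay in the windows of Jun and Ier3. In all, the core was found in 5 of the 8 windows and in 17.8% of the 32851 windows of this length in the annotation. The full element was found in 1 of 8 against 1.55%, the EGR motif in 2 of 8 against 4.7%, the CArG box in 1 of 8 against 1.47%, TATAAA in 1 of 8 against 12.4%, and TGANTCA in 0 of 8 against 6.75%. A match of letters describes these windows and shows no binding.

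The members lie on 7 chromosomes. In the deposited table, whose build the submitters' processing notes give as GRCm39, the AP-1 genes are Fos (ENSMUSG00000021250) at chr12:85520664-85524047 on the plus strand, Fosb (ENSMUSG00000003545) at chr7:19036621-19043976 on the minus strand, Jun (ENSMUSG00000052684) at chr4:94937271-94940459 on the minus strand and Junb (ENSMUSG00000052837) at chr8:85701113-85705347 on the minus strand. Atf3 (ENSMUSG00000026628) is at chr1:190902493-190950236 on the minus strand and Egr1 (ENSMUSG00000038418) at chr18:34992876-34998037 on the plus strand. Ier2 (ENSMUSG00000053560) is at chr8:85387960-85389483 on the minus strand, and Ier3 (ENSMUSG00000003541) at chr17:36132576-36133815 on the plus strand. Dusp1 (ENSMUSG00000024190) is listed at chr17:26724564-26781102 on the minus strand and Zfp36 (ENSMUSG00000044786) at chr7:28076209-28079678 on the minus strand. The listed span of Dusp1, 56539 bases, overlaps Ergic1 (median 2145.5 counts per library) and Gm8225 (218.5) on the other strand. Junb overlaps Prdx2 (5466.5), Jun overlaps Junos (18) and Zfp36 overlaps Gm44710 (8), each also on the other strand. The libraries kept strand, but whether the counting used it is not given in the sources used here, so reads of such pairs cannot be told apart.

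Total counts per library lay between 8080321 and 52824743. Ptk6 had 284 to 2405 counts in the 12 wild type libraries and 7 to 61 in the 12 Ptk6-/- libraries, so every library stood on the side of its labelled genotype. The 10 enterocyte markers fixed for the tissue check had at least 10 counts in every library, and their summed level lay between 18649 and 55409 CPM (counts divided by the effective library size and scaled). A set of 3 libraries stood apart. Ribosomal 18S RNA took 51.2% of the counts of male wild type control 1 and 29.7% of those of succinate-treated male Ptk6-/- mouse 1, which was also the shallowest library, against 0.108 to 4.49% elsewhere. Succinate-treated female wild type mouse 2 held 21255 CPM of 10 heart muscle markers against 17.98 to 254 elsewhere. The comparisons that use these libraries were also made without them.

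All 10 genes were expressed in the jejunum, at levels that differed widely between genes. Per length, in the deposited FPKM (fragments per kilobase of transcript, scaled to library depth), the median over the 24 libraries was highest for Junb at 44.7, Zfp36 at 42.3 and Ier2 at 39.1. Fos at 30.3 and Jun at 24.9 followed, then Atf3 at 12.3. Ier3 at 4.37, Dusp1 at 4.34 and Egr1 at 2.39 were low, and Fosb at 0.639 was the lowest. Ranges over libraries overlapped between neighbours in this order, so the order of Junb, Zfp36 and Ier2, of Fos and Jun, and of Ier3, Dusp1 and Egr1 does not exceed the spread between mice. From here on levels of a single gene are TMM-normalised CPM, which compare libraries but not genes. By counts, 8 of the 10 had at least 10 in every library. Egr1 was down to 9 and Ier3 to 7 counts in the shallowest library, and all 10 passed the filter of at least 10 counts in at least 3 libraries in every comparison.

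The AP-1 subunits varied widely between mice of the same group. Fos, the partner that Jun proteins need for the most stable AP-1 dimer, had in males (mice 1, 2 and 3 of each group in order) 96.8, 105 and 99.4 CPM in wild type controls, 68.5, 87.1 and 73.6 in wild type mice on succinate, 118, 142 and 240.3 in Ptk6-/- controls and 18.7, 139 and 94.8 in Ptk6-/- mice on succinate. The Ptk6-/- controls all lay above the wild type controls, and the wild type mice on succinate all lay below them. Succinate-treated Ptk6-/- mouse 1 held the lowest value of the series and its group spanned both wild type groups. In females Fos had 207, 81.9 and 92.0 CPM in wild type controls, 38.9, 31.8 and 106 in wild type mice on succinate, 109, 110.2 and 46.1 in Ptk6-/- controls and 82.2, 71.7 and 119 in Ptk6-/- mice on succinate. Wild type control 1 stood well above its group mates, and the 4 female groups overlapped.

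Fosb, an inducible Fos paralogue that is nearly silent in resting tissue, had in males 3.68, 5.17 and 6.41 CPM in wild type controls, 2.36, 4.36 and 2.46 in wild type mice on succinate, 7.09, 19.5 and 23.5 in Ptk6-/- controls and 4.19, 6.84 and 9.06 in Ptk6-/- mice on succinate. Mice 2 and 3 of the Ptk6-/- controls were the 2 highest of all 24, mouse 1 lay just above the wild type controls, and the groups did not overlap. In females Fosb had 10.1, 4.99 and 2.80 CPM in wild type controls, 3.99, 4.55 and 8.16 in wild type mice on succinate, 7.09, 6.83 and 6.26 in Ptk6-/- controls and 2.93, 3.15 and 8.72 in Ptk6-/- mice on succinate. Here the groups overlapped throughout. These CPM rest on 15 to 1098 counts.

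Jun, the AP-1 subunit activated by JNK phosphorylation, had in males 85.3, 114 and 119.9 CPM in wild type controls, 93.3, 108 and 98.1 in wild type mice on succinate, 114, 136 and 136 in Ptk6-/- controls and 40.0, 122 and 105 in Ptk6-/- mice on succinate. In females it had 179, 68.8 and 98.4 CPM in wild type controls, 45.9, 38.2 and 162 in wild type mice on succinate, 104, 145 and 39.9 in Ptk6-/- controls and 83.1, 42.5 and 89.0 in Ptk6-/- mice on succinate. Male libraries lay close together apart from succinate-treated Ptk6-/- mouse 1, while every female group held a mouse far from the other 2 or a wide spread. Junb, a Jun relative that can restrain it, had in males 126, 165 and 194 CPM in wild type controls, 127, 237 and 156 in wild type mice on succinate, 131, 209.8 and 182 in Ptk6-/- controls and 59.3, 132 and 191 in Ptk6-/- mice on succinate. Its values in females were 153, 136 and 168 CPM in wild type controls, 78.6, 56.3 and 143 in wild type mice on succinate, 110.4, 99.2 and 133 in Ptk6-/- controls and 109, 101 and 104 in Ptk6-/- mice on succinate. Female Ptk6-/- controls lay below female wild type controls without overlap, and all other pairs of groups that differ in 1 factor overlapped.

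Atf3, which is induced by stress and binds AP-1 and cyclic AMP response elements, ranged in males over 13.9 to 37.8 CPM in wild type controls, 18.5 to 54.0 with succinate, 25.0 to 69.6 in Ptk6-/- controls and 18.5 to 61.7 with succinate. In females the ranges were 31.2 to 44.7, 35.3 to 65.2, 17.2 to 43.0 and 23.8 to 46.9 in the same order. All of these groups overlapped within a sex.

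Egr1, a zinc finger activator downstream of ERK, had in males 10.004, 13.5 and 18.5 CPM in wild type controls, 23.3, 17.1 and 9.83 in wild type mice on succinate, 16.7, 53.2 and 24.8 in Ptk6-/- controls and 2.52, 10.9 and 15.4 in Ptk6-/- mice on succinate. Ptk6-/- control 2 was far above all other libraries. The Ptk6-/- controls lay above the Ptk6-/- mice on succinate without overlap. In females Egr1 had 10.8, 8.18 and 8.21 CPM in wild type controls, 10.9, 21.2 and 19.1 in wild type mice on succinate, 9.55, 15.9 and 3.27 in Ptk6-/- controls and 9.81, 13.9 and 14.2 in Ptk6-/- mice on succinate. Wild type mice on succinate lay above their controls, by a margin as narrow as 10.9 against 10.8.

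Ier2, a short nuclear early response gene, had in males 52.2, 89.0 and 88.4 CPM in wild type controls, 54.8, 257 and 172 in wild type mice on succinate, 46.4, 74.1 and 58.8 in Ptk6-/- controls and 193, 80.8 and 69.6 in Ptk6-/- mice on succinate. The Ptk6-/- controls had the lowest mean of the 8 groups but overlapped the wild type controls, and the highest male values were in wild type mice 2 and 3 and in Ptk6-/- mouse 1 on succinate. In females Ier2 had 85.6, 172 and 83.5 CPM in wild type controls, 175, 84.0 and 91.0 in wild type mice on succinate, 56.2, 47.8 and 85.9 in Ptk6-/- controls and 69.0, 142 and 67.1 in Ptk6-/- mice on succinate. In every female group a single mouse stood well above its group mates, and the groups overlapped. Ier3, an early gene linked to survival signalling, had in males 5.52, 5.92 and 5.95 CPM in wild type controls, 3.89, 9.78 and 9.55 in wild type mice on succinate, 3.76, 6.06 and 6.86 in Ptk6-/- controls and 1.96, 6.0 and 6.31 in Ptk6-/- mice on succinate. In females Ier3 had 6.66, 8.54 and 6.86 CPM in wild type controls, 8.47, 6.82 and 8.34 in wild type mice on succinate, 4.85, 4.84 and 3.13 in Ptk6-/- controls and 7.204, 13.9 and 7.47 in Ptk6-/- mice on succinate. Female Ptk6-/- controls were lowest, and overlapped neither the wild type controls nor the Ptk6-/- mice on succinate.

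Dusp1, the nuclear phosphatase that shuts off MAP kinases, had in males 6.80, 19.96 and 26.5 CPM in wild type controls, 26.0, 22.6 and 21.7 in wild type mice on succinate, 20.2, 39.3 and 32.0 in Ptk6-/- controls and 3.08, 12 and 19.0 in Ptk6-/- mice on succinate. The wild type mice on succinate lay in a narrow band above the Ptk6-/- mice on succinate, and the Ptk6-/- controls lay above the latter too. In females Dusp1 had 19.0, 8.11 and 12.9 CPM in wild type controls, 10.98, 49.8 and 24.1 in wild type mice on succinate, 14.1, 13.3 and 8.69 in Ptk6-/- controls and 12.9, 13.3 and 30.6 in Ptk6-/- mice on succinate. The highest value of all 24 was in wild type mouse 2 on succinate, the library with heart muscle transcripts. Zfp36 ranged in males over 115 to 224 CPM in wild type controls, 189 to 227 with succinate, 196 to 374 in Ptk6-/- controls and 41.9 to 308 with succinate. In females it ranged over 182 to 214, 105 to 218, 162 to 231 and 124 to 178, and groups that differ in a single factor overlapped.

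**Figure D1:**
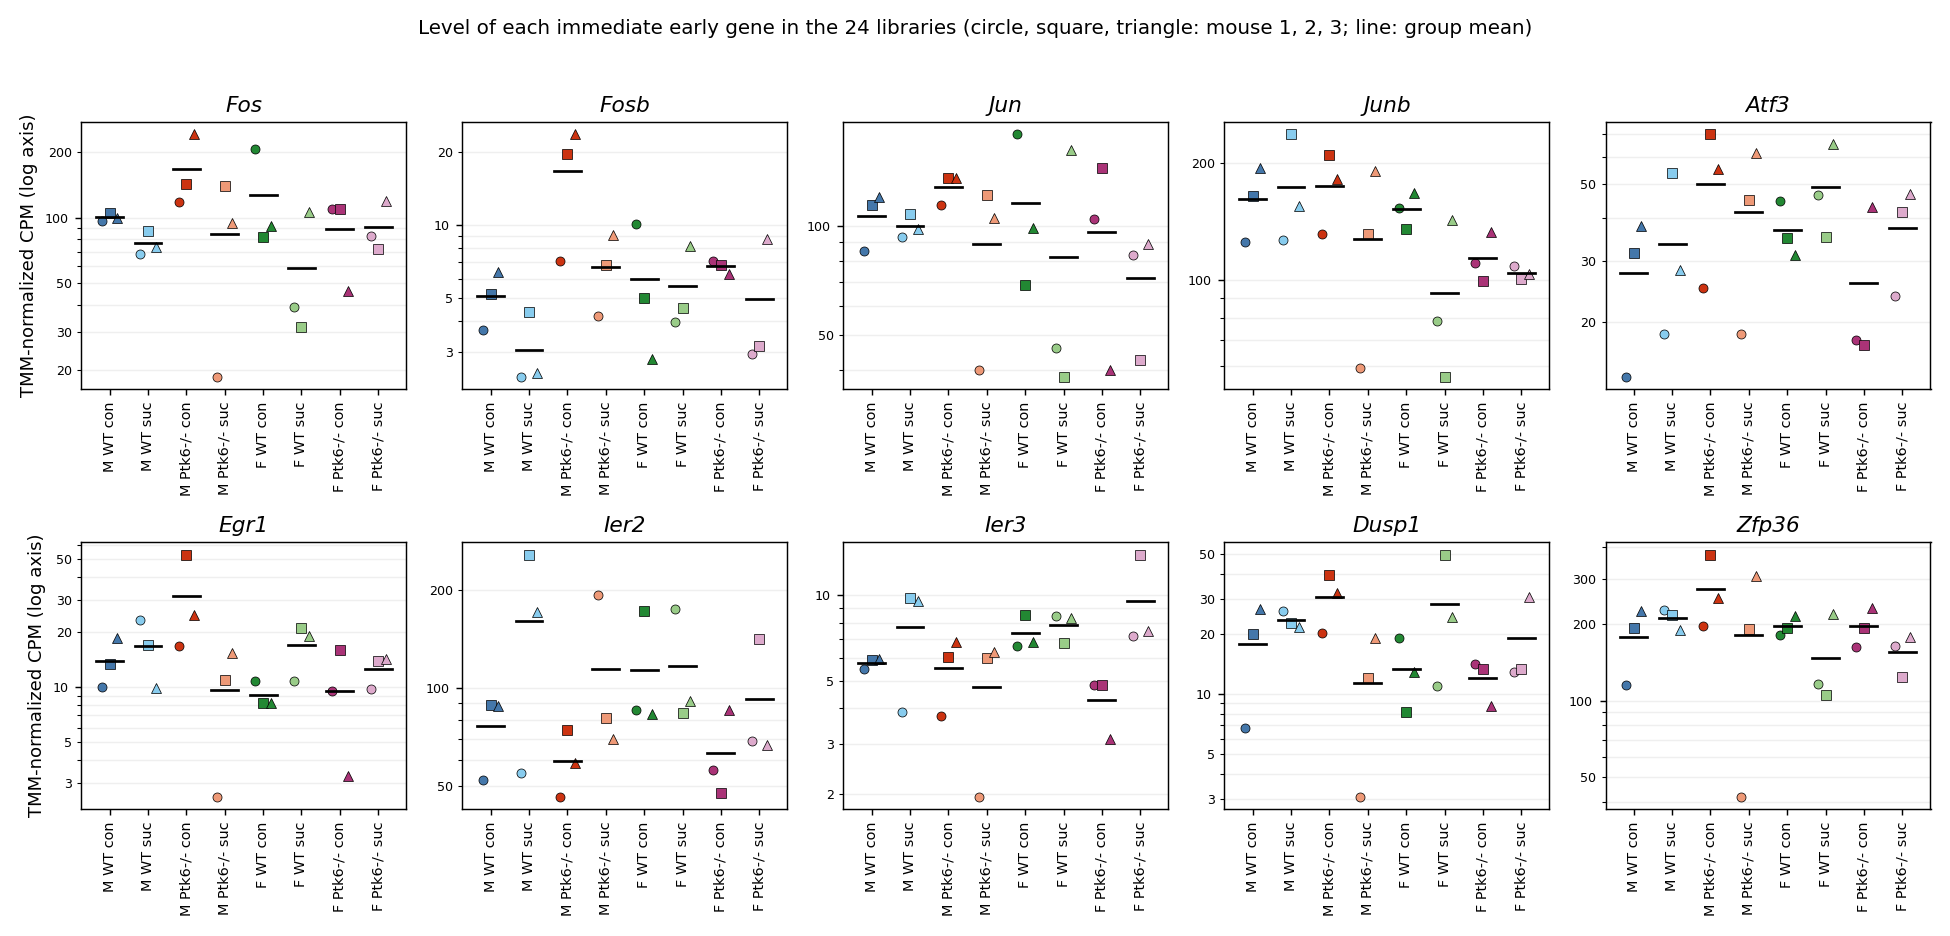
Level of each member (CPM, log axis) in each of the 24 libraries by group (M male, F female, WT wild type, con control, suc succinate), with symbols for mice 1 to 3 and a line for the group mean. Male Ptk6-/- controls sit highest for Fos, Fosb and Egr1, and single mice of a group often lie far from their group mates.

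Single mice stood out over many members at once. To set libraries side by side, the log2 CPM of each member was centred and divided by its standard deviation over the 24 libraries, and the 10 values were averaged. The mean standardised level was highest in male Ptk6-/- control 2 (1.18), male Ptk6-/- control 3 (0.95) and succinate-treated male wild type mouse 2 (0.74). Ptk6-/- control 2 was among the 3 highest libraries for 7 of the 10 members, control 3 for 5 and the wild type mouse for 3. Succinate-treated female wild type mouse 3 (0.64) was above the series mean for all 10 members without leading in many. The lowest were succinate-treated male Ptk6-/- mouse 1 (-1.84), male wild type control 1 (-0.69) and female Ptk6-/- control 3 (-0.65). The first of these was among the 3 lowest libraries for 7 members, the second for 4 and the last for 3. Both male libraries at the low end are the ones rich in 18S RNA.

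By group, the mean standardised level was 0.68 ± 0.67 (SD, n = 3) in male Ptk6-/- controls and -0.04 ± 0.58 in male wild type controls. It was -0.39 ± 1.26 in succinate-treated male Ptk6-/- mice and -0.40 ± 0.23 in female Ptk6-/- controls. The other 4 group means lay between -0.09 and 0.18. The 3 succinate-treated male Ptk6-/- mice alone spanned -1.84 to 0.50, a wider range than that of the 8 group means.

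**Figure D2:**
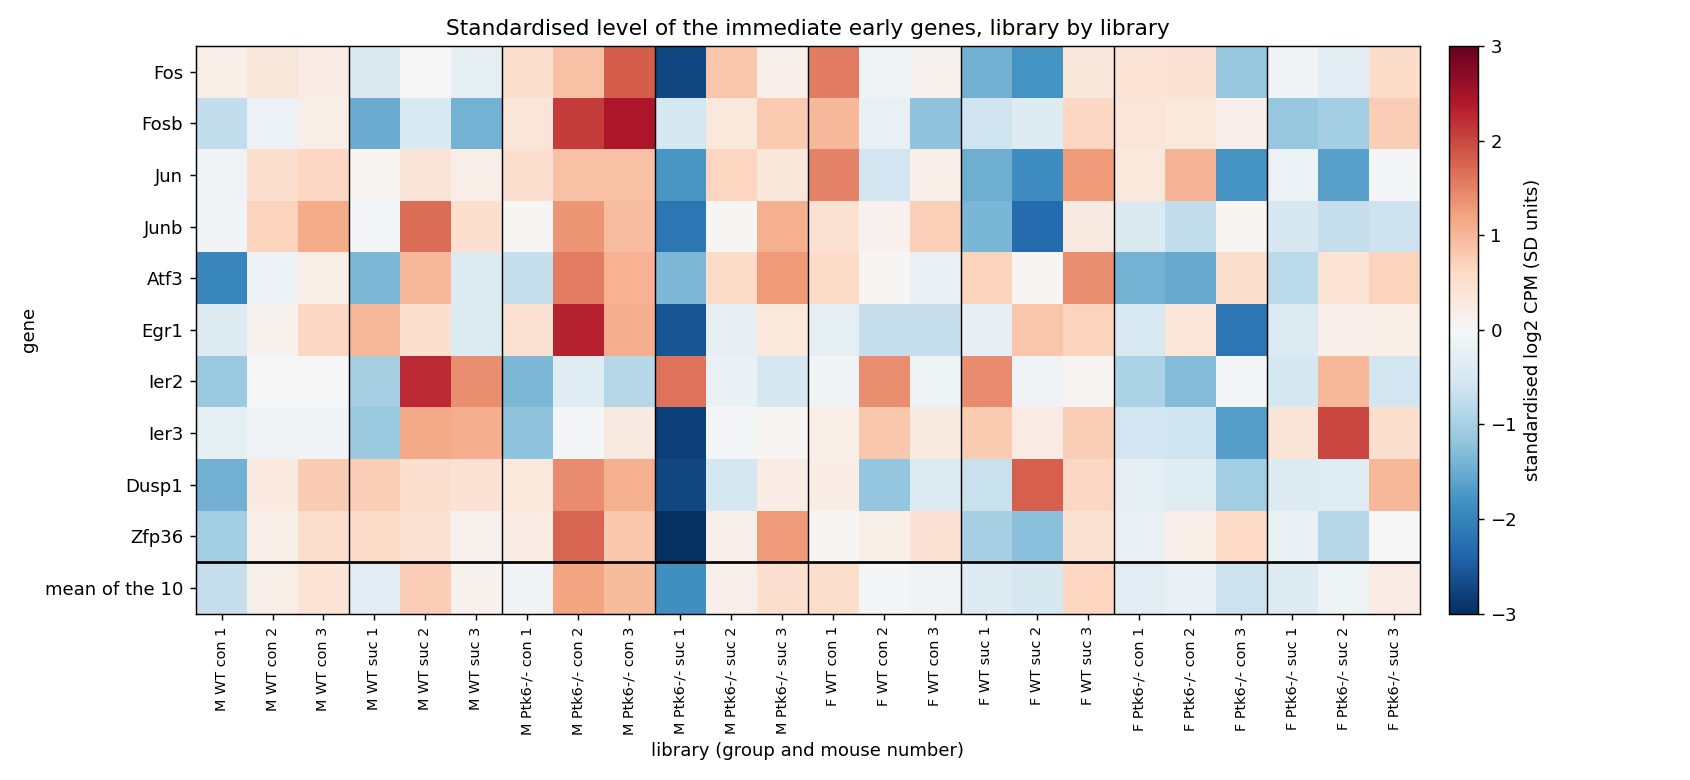
Standardised log2 CPM of the 10 members (rows) in the 24 libraries (columns, by group and mouse), in colour from low (blue) to high (red), with the mean of the 10 below. Male Ptk6-/- controls 2 and 3 are high over most rows, succinate-treated male Ptk6-/- mouse 1 is low over most rows, while its Ier2 is among the highest.

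Across the 24 libraries the mean standardised level went along with the log2 summed CPM of other immediate early transcription factors (Pearson r = 0.86, and 0.82 without the 3 libraries that stood apart) and of other immediate early effectors (r = 0.84 and 0.78), with feedback phosphatases and RNA decay genes (r = 0.63 and 0.51) and with upstream kinases and serum response factors (r = 0.50 and 0.55), whereas with other AP-1 and ATF genes r was 0.01 and 0.12. All of these sums share each library's normalisation with the members. With the log10 of total counts r was 0.67 over all libraries and 0.02 without the 3, and with the share of 18S RNA it was -0.52 and 0.03. Both lay near 0 without those libraries, so they rest on them. The length slope, that of a library's log2 CPM on the log2 length of its genes, gave r = 0.41 (0.24 without the 3). Exocrine pancreas markers gave -0.36 (-0.41 without the 3), heart muscle markers -0.33 (-0.01 without the 3) and fibroblast markers -0.00 (-0.48 without the 3). Heat shock genes, another class sensitive to handling, and the other 7 marker lists lay between -0.12 and 0.15, and between -0.20 and 0.33 without the 3. The part of these measures in the members' levels was not tested. These correlations describe 24 libraries of 8 groups and carry no test.

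**Figure D3:**
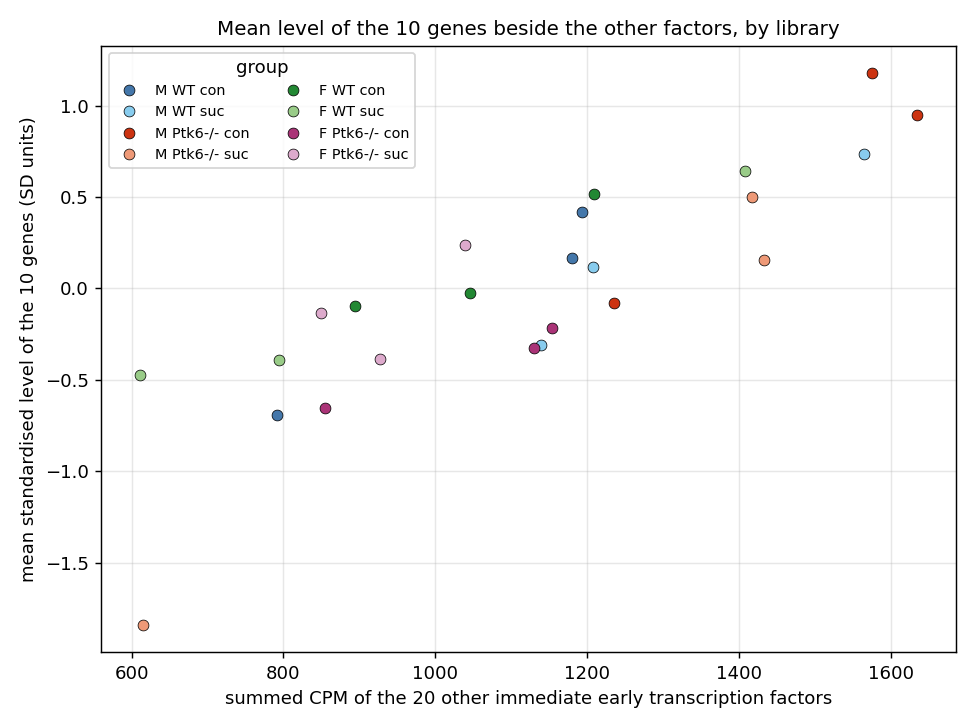
Mean standardised level of the 10 members (SD units) against the summed CPM of 20 other immediate early transcription factors, 1 point a library, coloured by group (M male, F female, WT wild type, con control, suc succinate). Libraries with high members are high in the other factors, with male Ptk6-/- controls 2 and 3 at the top right and succinate-treated male Ptk6-/- mouse 1 lowest.

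With all 24 libraries the members varied more within groups than most genes of like level. The standard deviation of log2 CPM within groups, pooled over the 8 groups, was 0.82 for Dusp1, 0.79 for Egr1 and 0.77 for Fos. Among genes whose mean log2 CPM lay within 0.5 of theirs, this put Dusp1 at percentile 93.8, Fos at 93.0 and Egr1 at 91.3. Jun (0.70, percentile 89.8), Atf3 (0.68, 90.04), Ier2 (0.66, 87.0), Zfp36 (0.64, 86.1) and Fosb (0.66, 75.5) followed. Junb (0.46, 64.1) and Ier3 (0.52, 58.1) were the steadiest and nearer to the middle. Without the 3 libraries that stood apart, the standard deviation was 0.52 for Dusp1 (percentile 79.0) and 0.57 for Fos (84.6). Zfp36 was then at percentile 48.9, Junb at 46.5 and Ier3 at 58.5, whereas Jun, Egr1, Fosb, Ier2 and Atf3 were between 87.8 and 89.6. From the lowest to the highest library, levels spanned 21.1-fold for Egr1, 16.2-fold for Dusp1 and 12.8-fold for Fos, and 4.22-fold for Junb, the least of the 10. The first 3 had their lowest value in succinate-treated male Ptk6-/- mouse 1, and Dusp1 its highest in the library with heart muscle transcripts. Without the 3 libraries the spans were 16.2-fold for Egr1, 4.84-fold for Dusp1, 6.17-fold for Fos and 3.02-fold for Junb.

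The comparison of genotypes in control males asks whether loss of Ptk6 alone alters these genes. No member was called by edgeR's quasi-likelihood test at the threshold used throughout, an adjusted p under 0.05 (Benjamini-Hochberg over all genes tested) with a change of 2-fold or more in either direction. The smallest adjusted p of any member in the 14 comparisons was found here, for Fosb. The log2 fold change was positive for 8 of 10, with a median of 0.65 against 0.02 over all genes tested. Without wild type control 1, the library rich in 18S RNA, 7 of 10 were positive with a median of 0.40, and 3 of 10 had an unadjusted p under 0.05 against 25.8% of genes. These were Fosb and Fos, both higher, and Ier2, lower at -0.56. The fold change was positive for 7 to 9 when single libraries were left out, for 9 with an offset for gene length (Ier3 changing sign) and for 10 by limma on log2(FPKM + 1). The median by limma was 0.96, where FPKM understates the members in wild type control 1, the library rich in 18S RNA. Fosb averaged 16.7 ± 8.57 CPM (SD, n = 3) in Ptk6-/- against 5.09 ± 1.37 in wild type controls, a log2 fold change of 1.68 (SE 0.42, adjusted p = 0.0581). Fos averaged 167 ± 65.0 against 101 ± 4.38, a difference of 0.70 (SE 0.25, adjusted p = 0.134). Egr1 averaged 31.6 ± 19.1 against 14.0 ± 4.27, or 1.14 (SE 0.41, adjusted p = 0.128), with overlapping libraries. Since the RNA is of whole tissue, more RNA per cell and more cells of a type that expresses a gene cannot be told apart. The other 7 members lay between -0.38 (Ier2) and 0.82 (Atf3).

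At an unadjusted p under 0.05 there were 3 members of 10, where 25.2% of all genes tested passed it. There were 2 to 6 when single libraries were left out, with 6 of 10 against 23.8% of genes without Ptk6-/- control 1, and 8 of 10 against 35.3% by voom with sample weights. Libraries did not overlap for 2 members, Fos and Fosb, against 32% of genes, and 0 of 10 were called against 0.739% (142 of 19218). The call of Fosb turned on the setting. It was called at 1.70 (adjusted p = 0.0355) without a filter on low counts, at 1.68 (adjusted p = 0.0407) with at least 10 counts in every library, at 1.70 (adjusted p = 0.00025) by DESeq2, at 1.76 (adjusted p = 0.0404) by limma on log2(FPKM + 0.1) and at 1.81 (adjusted p = 0.00617) by voom with sample weights, which also called Egr1. Voom called 577 genes in this comparison, the most of any setting, and FPKM understates the members in wild type control 1. Without Ptk6-/- control 1, the mouse nearest to wild type, edgeR gave Fosb 2.05 (adjusted p = 0.0186). Without wild type control 1 Fosb was 1.53 (adjusted p = 0.0951) and Egr1 0.99 (adjusted p = 0.222). Egr1 was at 0.53 without Ptk6-/- control 2, and Fos at 0.32 without Ptk6-/- control 3.

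A further measure differed between these groups. The slope of a library's log2 CPM on the log2 length of its genes, which tells whether long or short transcripts are favoured, was 0.805 to 0.864 in male Ptk6-/- controls and 0.642 to 0.703 in wild type controls, without overlap. With an offset for that trend Fosb was 1.51 (adjusted p = 0.106), and Fos 0.72 (adjusted p = 0.160). Summed heat shock genes stood at 2944 to 3423 CPM against 3197 to 3828, and summed mesothelial and fat markers at 152 to 257 against 109.8 to 165 CPM, with 9 of these 10 markers at a positive log2 fold change, 4 of them at an unadjusted p under 0.05, and none at 0 in every library. Upk3b, a surface protein of mesothelium, rose past the threshold at 1.56 (SE 0.32, adjusted p = 0.0400). Without overlap, unlike the heat shock and the mesothelial and fat sums, were the summed T cell markers at 65.6 to 79.8 against 87.4 to 95.3 CPM (9 of 10 tested lower, 5 at an unadjusted p under 0.05) and exocrine pancreas markers at 33.1 to 52.5 against 77.8 to 85.7 CPM (2 of 2 tested lower, 1 at an unadjusted p under 0.05). Of these, Clps, a pancreatic lipase cofactor, fell past the threshold at -1.07 (SE 0.19, adjusted p = 0.0322). Without wild type control 1 neither passed it, with Upk3b at 1.53 (adjusted p = 0.0553) and Clps at -0.96 (adjusted p = 0.0474). Outside the pancreas list, no marker of the lists used here was at 0 in every library. The part of those cells, and of the length trend beyond the offset, in the result was not tested.

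In control females the fold changes of the same comparison were negative for 8 of 10 members (of which Ier2 and Ier3 were negative in males too), with a median of -0.35 against 0.04 over all genes. None was called, where 0.0158% of genes were (3 of 19035), and 1 had an unadjusted p under 0.05, where 11.1% of genes did. Ier3 averaged 4.27 ± 0.989 CPM in Ptk6-/- against 7.35 ± 1.03 in wild type mice, a log2 fold change of -0.79 (SE 0.28, adjusted p = 0.391). Junb averaged 114 ± 17.1 against 152 ± 16.3, or -0.42 (SE 0.23, adjusted p = 0.512). Those were the 2 members whose libraries did not overlap, beside 18.8% of genes. The remaining members lay between -0.85 (Ier2) and 0.17. Without Ptk6-/- control 3, whose Atf3 was 43.0 CPM against 17.8 and 17.2 in its group mates, edgeR called Atf3 at -1.09 (adjusted p = 0.0275) among 1808 genes. Ptk6-/- control 3 also held the lowest Fos, Jun and Egr1 of its group. Without wild type control 1, which had the highest Jun of the series, 5 of 10 fold changes were positive. The groups also stood apart in summed B cell and follicle markers at 34.2 to 99.6 against 16.5 to 32.9 CPM (10 of 10 tested higher, 7 at an unadjusted p under 0.05) and myeloid markers at 258 to 323 against 171 to 239 CPM (9 of 9 tested higher, 1 at an unadjusted p under 0.05). Their part in the result was not tested. A difference between the sexes in the genotype effect of control mice was not tested.

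With succinate no member separated the genotypes past the threshold in either sex. In males 7 of 10 fold changes were negative, with a median of -0.29 against -0.03, and without the shallow Ptk6-/- mouse 1, 5 of 10 were positive with a median of 0.05, and 1 of 10 had an unadjusted p under 0.05 against 4.82% of genes. Fosb averaged 6.70 ± 2.43 CPM in Ptk6-/- against 3.06 ± 1.12 in wild type mice, a log2 fold change of 1.20 (SE 0.45, adjusted p = 1.00) with an unadjusted p of 0.0286. Dusp1 went the other way at 11.3 ± 7.96 against 23.4 ± 2.25, or -0.96 (SE 0.53, adjusted p = 1.00), and its libraries did not overlap. It was -0.59 without Ptk6-/- mouse 1 and -1.51 without Ptk6-/- mouse 3. The other 8 members lay between -0.71 (Egr1) and 0.37 (Atf3). Called members were 0 against 0% of genes, members under an unadjusted p of 0.05 were 1 of 10 against 2.72%, and members without overlap were 1 of 10 against 9.26%. Voom with sample weights called Fosb at 1.42 (adjusted p = 0.0208) and Ier2 at -1.21 (adjusted p = 0.0321) among 1799 genes, and the other settings tried called no member. Of the summed lists, those without overlap were B cell and follicle markers at 20.7 to 49.7 against 140.1 to 155 CPM (10 of 10 tested lower, 10 at an unadjusted p under 0.05), myeloid markers at 146 to 198 against 224 to 365 CPM (9 of 11 tested lower, 2 at an unadjusted p under 0.05), mesothelial and fat markers at 183 to 264 against 83.3 to 164 CPM (9 of 10 tested higher, 4 at an unadjusted p under 0.05) and heat shock genes at 2791 to 3661 against 3924 to 5529.6 CPM (15 of 16 tested lower, 0 at an unadjusted p under 0.05). Heart muscle markers stood at 46.8 to 254 against 18.9 to 83.2 CPM, with 9 of 9 higher. Their part in the result was not tested. In females the fold changes lay between -0.62 (Dusp1) and 0.60 (Fos) with a median of -0.22. Without wild type mouse 2, the library with heart muscle transcripts, Dusp1 was 0.08 and Fos 0.30, and 3 of 10 were positive with a median of -0.21, and 0 of 10 had an unadjusted p under 0.05 against 2.08% of genes. With all libraries 0 members were called against 0%, 0 had an unadjusted p under 0.05 against 4.52%, and 0 were without overlap against 10.7%. DESeq2 and limma on log2(FPKM + 1) called none there either. Libraries of these females did not overlap in summed enterocyte markers at 18649 to 21161 against 27605 to 39012 CPM (9 of 10 tested lower, 0 at an unadjusted p under 0.05). The part of enterocytes in the result was not tested.

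Succinate was compared with regular water within each genotype and sex. In wild type males Fos averaged 76.4 ± 9.60 CPM with succinate against 101 ± 4.38 without it, a log2 fold change of -0.43 (SE 0.19, adjusted p = 0.947), and the libraries did not overlap. Ier2 averaged 161 ± 102 against 76.5 ± 21.1, or 1.06 (SE 0.51, adjusted p = 0.947), with mice 2 and 3 high and mouse 1 within the range of the controls. Without that mouse 1 edgeR called Ier2 at 1.44 (adjusted p = 0.0137) among 1077 genes, and voom, with all 6 libraries, called it at 1.16 (adjusted p = 0.0132) among 1498 genes. Without mouse 2 on succinate it was 0.55. The other 8 members lay between -0.77 (Fosb) and 0.39 (Ier3), with an unadjusted p of 0.0612 for Fosb. With all libraries 7 of 10 were positive with a median of 0.22 against 0.02 over all genes. Without wild type control 1, 5 of 10 were positive with a median of -0.01, and 1 of 10 had an unadjusted p under 0.05 against 3.1% of genes, with Fosb at -0.92. No member was called in the main comparison (background 0%), none had an unadjusted p under 0.05 (4.07%), and 1 was without overlap (8.7%). In the same mice the groups did not overlap in summed B cell and follicle markers at 140.1 to 155 against 25.3 to 107 CPM (10 of 10 tested higher, 4 at an unadjusted p under 0.05) and heat shock genes at 3924 to 5529.6 against 3197 to 3828 CPM (13 of 16 tested higher, 2 at an unadjusted p under 0.05). Their part in the result was not tested.

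In Ptk6-/- males 9 of 10 fold changes with succinate were negative, with a median of -0.54 against -0.10 over all genes. Egr1 averaged 9.61 ± 6.54 CPM with succinate against 31.6 ± 19.1 without it, a log2 fold change of -1.63 (SE 0.62, adjusted p = 0.600). Dusp1 averaged 11.3 ± 7.96 against 30.5 ± 9.66, or -1.35 (SE 0.53, adjusted p = 0.600). Their libraries did not overlap, and those of Fosb at -1.24 (SE 0.47, adjusted p = 0.600) did. The exception was Ier2 at 1.01 (SE 0.45, adjusted p = 0.600), and the other 6 members lay between -0.95 (Fos) and -0.13 (Ier3). In all, 3 members had an unadjusted p under 0.05 against 7.75% of genes, 2 were without overlap against 24%, and 0 were called against 0%. Without Ptk6-/- control 2 no member had an unadjusted p under 0.05, and Egr1 was -1.03. Without succinate-treated mouse 1, the shallow library rich in 18S RNA, Egr1 was -1.26 (adjusted p = 0.441), Dusp1 -0.97 (adjusted p = 0.441), Fosb -1.07 (adjusted p = 0.455) and Ier2 0.34 (adjusted p = 0.532), where 7 of 10 were negative with a median of -0.15, and 3 of 10 had an unadjusted p under 0.05 against 11% of genes. The length slope was 0.562 to 0.749 with succinate against 0.805 to 0.864 without it, and did not overlap. With the length offset Fosb was -0.96 (adjusted p = 0.597), and the median of the members -0.41. Marker sums that did not overlap were heart muscle markers at 46.8 to 254 against 17.98 to 38.0 CPM (9 of 9 tested higher, 4 at an unadjusted p under 0.05), myeloid markers at 146 to 198 against 223 to 443 CPM (11 of 11 tested lower, 2 at an unadjusted p under 0.05), T cell markers at 83.0 to 95.6 against 65.6 to 79.8 CPM (7 of 10 tested higher, 1 at an unadjusted p under 0.05), endothelial markers at 125 to 135 against 145 to 164 CPM (7 of 10 tested lower, 0 at an unadjusted p under 0.05) and enterocyte markers at 31652 to 55409 against 21165 to 31215 CPM (5 of 10 tested higher, 1 at an unadjusted p under 0.05). Their part in the result was not tested. This comparison and that of the genotypes share the male Ptk6-/- controls, in which 8 of the 10 members had their highest group mean.

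In wild type females Egr1 averaged 17.0 ± 5.45 CPM with succinate against 9.05 ± 1.48 without it, a log2 fold change of 0.93 (SE 0.33, adjusted p = 0.617), without overlap. Dusp1 had 1.11 (SE 0.56, adjusted p = 0.680) and Fos -1.10 (SE 0.55, adjusted p = 0.677), and both overlapped. Fos was at -1.80 without mouse 3 on succinate and at -0.55 without wild type control 1. Mouse 2 on succinate, with 49.8 CPM of Dusp1, also held heart muscle markers and 488 CPM of summed endothelial markers against 195 and 130.2 in its group mates. Without it Dusp1 was 0.39 (adjusted p = 1.00) and Egr1 0.72 (adjusted p = 1.00), and 6 of 10 were positive with a median of 0.11, and 0 of 10 had an unadjusted p under 0.05 against 4.33% of genes. With all libraries the other 7 members lay between -0.71 (Junb) and 0.42 (Atf3), and 5 of 10 were positive with a median of -0.02. Without mouse 3 on succinate, Jun was -1.41 and Junb -1.13, and 5 of 10 against 23.6% of genes had an unadjusted p under 0.05. Members under an unadjusted p of 0.05 were 1 of 10 against 7.77% of genes, those without overlap 1 against 13%, and those called 0 against 0%. Sums of markers without overlap were those of fibroblast markers at 833 to 1243 against 562 to 686 CPM (10 of 10 tested higher, 4 at an unadjusted p under 0.05), smooth muscle markers at 4800.1 to 8459.9 against 3801 to 4788 CPM (8 of 10 tested higher, 3 at an unadjusted p under 0.05) and enterocyte markers at 27605 to 39012 against 44459 to 51213 CPM (7 of 10 tested lower, 1 at an unadjusted p under 0.05). The share of 18S RNA was 0.981 to 3.80% with succinate against 0.161 to 0.215% without it, again without overlap. Their part in the result was not tested.

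In Ptk6-/- females Ier3 averaged 9.53 ± 3.81 CPM with succinate against 4.27 ± 0.989 without it, a log2 fold change of 1.15 (SE 0.37, adjusted p = 0.402). Its libraries did not overlap, and mouse 2 on succinate was the highest of all 24. Without that mouse it was 0.75. The other 9 members lay between -0.48 and 0.63, and the median of the 10 was 0.21 against -0.04. Members under an unadjusted p of 0.05 were 1 of 10 against 10.7%, those without overlap 1 against 21%, and those called 0 against 0.0879% (17 of 19334). In the same mice summed heat shock genes were 4303 to 6349.9 CPM with succinate against 2531 to 3884 without it, and summed exocrine pancreas markers 244 to 1585 against 31.6 to 203 CPM (6 of that list of 10 were matched in the table). No overlap was seen either in summed T cell markers at 45.7 to 54.1 against 69.3 to 143 CPM (10 of 10 tested lower, 6 at an unadjusted p under 0.05), fibroblast markers at 891 to 1089 against 633 to 830.0 CPM (9 of 10 tested higher, 2 at an unadjusted p under 0.05), myeloid markers at 149 to 252 against 258 to 323 CPM (6 of 9 tested lower, 1 at an unadjusted p under 0.05) and enterocyte markers at 18649 to 21161 against 22187 to 55343 CPM (7 of 10 tested lower, 2 at an unadjusted p under 0.05). Their part in the result was not tested.

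**Figure D4:**
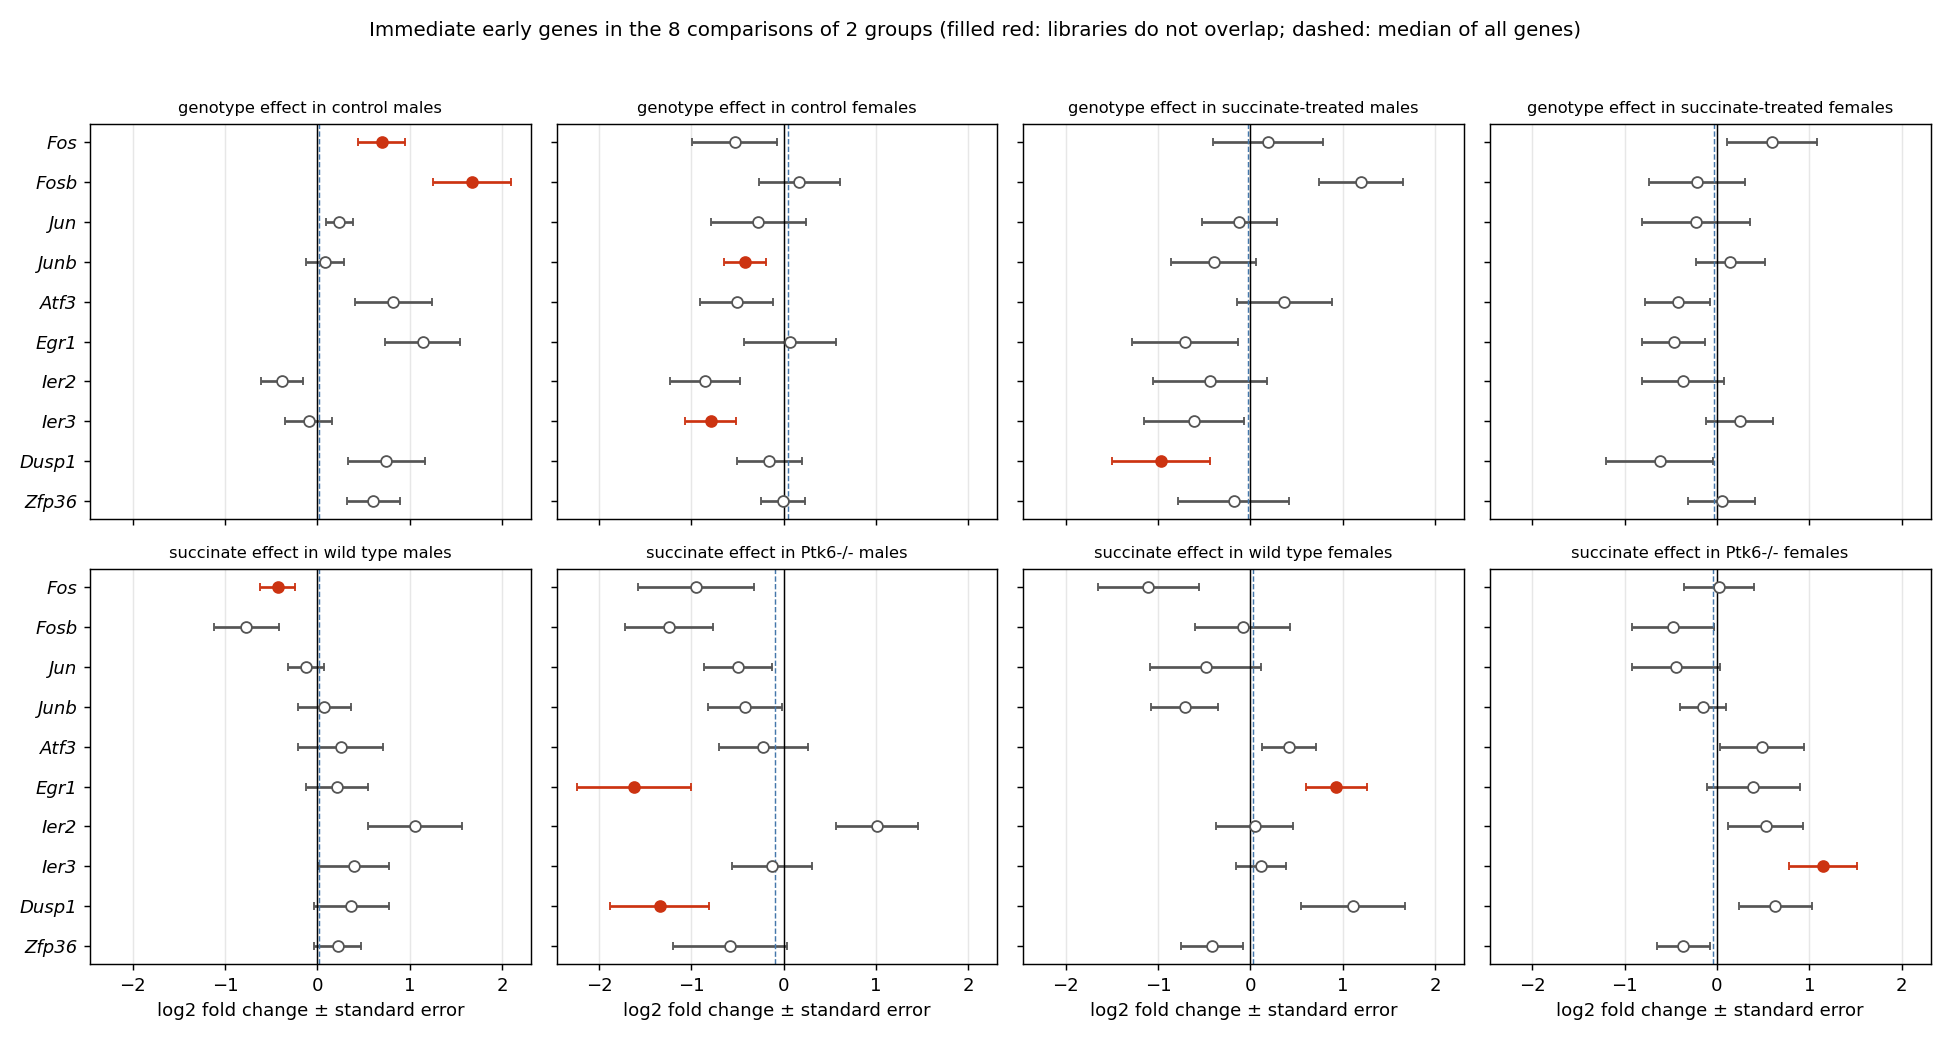
Log2 fold change of each member with its standard error in the 8 comparisons of 2 groups (edgeR), filled where the libraries did not overlap, with a dashed line at the median of all genes. Points lie mostly above 0 for genotype in control males and mostly below 0 for succinate in Ptk6-/- males, and no member passed the threshold of an adjusted p under 0.05 with a 2-fold change.

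Averaged over sexes and genotypes, succinate gave Fosb a log2 fold change of -0.65 (SE 0.25, adjusted p = 0.224), Fos -0.61 (SE 0.27, adjusted p = 0.276) and Ier2 0.64 (SE 0.25, adjusted p = 0.221). These were 3 of 10 members at an unadjusted p under 0.05, against 16.1% of genes, while 0 were called against 0.728% (158 of 21694). Without the 3 libraries that stood apart Fosb was -0.60, Fos -0.42 and Ier2 0.50, and 4 of 10 were positive with a median of -0.09, and 2 of 10 had an unadjusted p under 0.05 against 11.7% of genes (Fosb and Ier3). Averaged over sexes and treatments, Ptk6-/- against wild type gave Fosb 0.70 (SE 0.25, adjusted p = 0.314) and Ier2 -0.53 (SE 0.25, adjusted p = 0.371). Those were 2 of 10 against 13.4% at an unadjusted p under 0.05, and 0 were called against 0.0184% (4 of 21694). With those libraries left out Fosb was 0.68 and Ier2 -0.77, and 5 of 10 were positive with a median of -0.03, and 2 of 10 had an unadjusted p under 0.05 against 17.4% of genes. Females against males gave Junb -0.47 (SE 0.18, adjusted p = 0.232), 9 of 10 members were negative (6 by limma on log2(FPKM + 1) and 5 on log2(FPKM + 0.1)), and the median was -0.21 against 0.03. That was 1 of 10 at an unadjusted p under 0.05 against 15.3%, with 0 called against 0.36% (78 of 21694). With the 3 libraries left out, 8 of 10 were negative with a median of -0.25, and 4 of 10 had an unadjusted p under 0.05 against 16.3% of genes (Junb, Dusp1, Egr1 and Zfp36), with Dusp1 at -0.56 in place of -0.20. Voom with sample weights put 7 of 10 under that p.

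Interaction terms ask whether succinate acted differently in the genotypes. In males all 10 terms were negative, with a median of -0.50 against -0.08 over all genes. Egr1 at -1.83 (SE 0.76, adjusted p = 0.993) and Dusp1 at -1.70 (SE 0.73, adjusted p = 0.993) were the 2 at an unadjusted p under 0.05, against 3.8% of genes, and 0 were called against 0%. Without the 2 libraries rich in 18S RNA, 8 of 10 were negative with a median of -0.15, and 1 of 10 had an unadjusted p under 0.05 against 3.93% of genes. Egr1 was then -1.32 (adjusted p = 1.00) and Dusp1 -0.98 (adjusted p = 1.00). With the length offset, which raised the median of all genes by 0.31, Ier2 was 0.25 in place of -0.06. In females 7 of 10 terms were positive, Ier3 had 1.05 (SE 0.44, adjusted p = 0.752), 1 member passed the unadjusted threshold against 6.46%, and 0 were called against 0%. Without the library with heart muscle transcripts, 5 of 10 were positive with a median of 0.08, and 0 of 10 had an unadjusted p under 0.05 against 4.19% of genes. Ier3 was then 0.96, and Dusp1 0.25 in place of -0.45. Without Ptk6-/- mouse 2 on succinate Ier3 was 0.68. The difference between the sexes in this interaction was positive for all 10 members, with a median of 1.00 against 0.03. None of the 10 had an unadjusted p under 0.05 against 5.99%, and 0 were called against 0%. Without the libraries that stood apart, 7 of 10 were positive with a median of 0.63, and 0 of 10 had an unadjusted p under 0.05 against 4.03% of genes.

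Over all 14 comparisons edgeR called 0 members and limma on log2(FPKM + 1) called 0, while DESeq2 and limma on log2(FPKM + 0.1) called 1 each, which was Fosb in control males. Voom with sample weights made 5 calls in 3 comparisons. It called 577 genes there for genotype in control males, 1799 for genotype in succinate-treated males and 1498 for succinate in wild type males. Voom also put more members under an unadjusted p of 0.05, with 4 of 10 against 38.5% of genes in control females, 4 of 10 against 38.1% for succinate in wild type males, 4 of 10 against 12.9% in wild type females and 6 of 10 against 36.4% on average. When single libraries were left out, the number of members under that p in edgeR was 0 to 4 for genotype in control females, 0 to 1 and 0 to 1 in succinate-treated males and females, and for succinate 0 to 3 in wild type males, 0 to 4 in Ptk6-/- males, 0 to 5 in wild type females and 0 to 2 in Ptk6-/- females.

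Correlations between members were taken over the 24 libraries, and the 3 highest of 45 are given first. Fos and Jun had r = 0.86 in log2 CPM and 0.88 after group means were removed. Egr1 and Dusp1 had 0.84 and 0.76, and Junb and Zfp36 0.82 and 0.86. After group means were removed Junb and Atf3 were at 0.82, beside 0.43 without that step. Without the 3 libraries that stood apart the first 3 pairs were at 0.81, 0.81 and 0.77. Ier2 was at -0.48 with Fos, -0.41 with Jun, -0.35 with Fosb and -0.05 with Junb. With Ier3 it was at 0.32 (0.70 without the 3 libraries) and with Atf3 at 0.28. Its r with the mean of the other 9 members was -0.26, against 0.76 for Zfp36, 0.70 for Junb and 0.70 for Fos, with the other 6 between 0.43 and 0.67. The 45 pairs share libraries and normalisation, and no test was made of them.

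Ier2 also went along with a property of the whole library. Its log2 CPM had r = -0.80 with the length slope of the 24 libraries, and -0.75 without the 2 libraries farthest from the median slope. Fos (0.57), Jun (0.63), Egr1 (0.63), Dusp1 (0.58), Fosb (0.51) and Zfp36 (0.51) went the other way. Junb was at 0.18, Atf3 at -0.02 and Ier3 at -0.19. For Ier3 r was -0.44 without those 2 libraries and -0.54 without the 3 that stood apart. By length, Ier3 is at percentile 14.9 of genes and Ier2 at 20.7, the shortest of the members, while Fosb is at 78.1 and Egr1 at 62.2. Between them lie Atf3 at 30.1, Junb at 32.3, Fos at 33.1, Jun at 45.9, Dusp1 at 47.6 and Zfp36 at 49.9. Length thus does not order the members as r with the slope does. With the length offset the averaged genotype difference of Ier2 was -0.37 (adjusted p = 0.575) in place of -0.53, and its averaged succinate difference 0.69 (adjusted p = 0.179) in place of 0.64. In succinate-treated males the genotype difference of Ier2 was -0.02 with the offset and -0.44 without it.

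**Figure D5:**
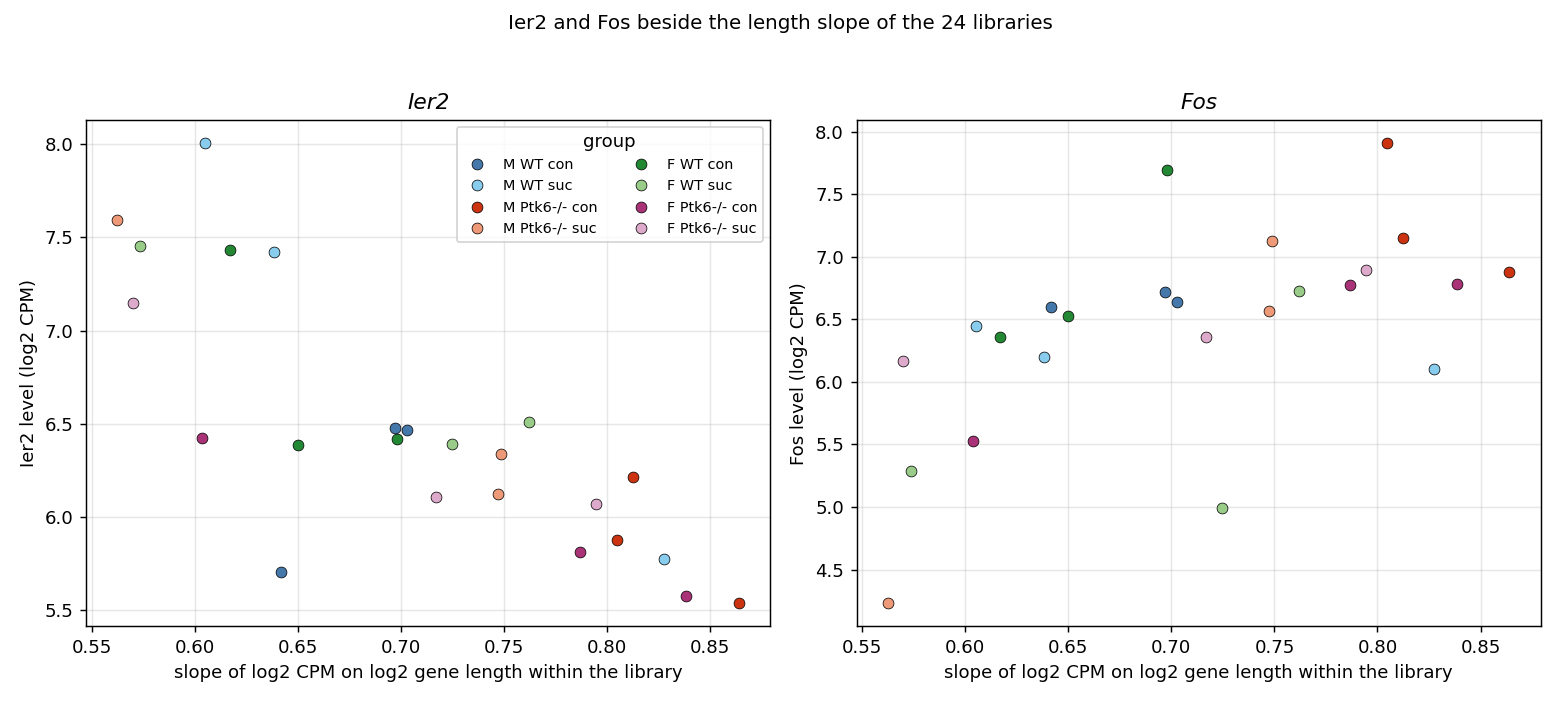
Log2 CPM of Ier2 and Fos in the 24 libraries against the length slope of each library, coloured by group. Ier2 is lower and Fos higher where the slope is steeper, and male Ptk6-/- controls lie at the steep end.

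Of 16611 other genes, those most like the members were taken by the Pearson r of their log2 CPM with the mean standardised level over the 24 libraries. The 10 highest, each with r over all libraries and r without the 2 libraries farthest from the median level, were Tmem43 (0.91, 0.87), Dusp10 (0.89, 0.82), Ifrd1 (0.88, 0.81), Mir22hg (0.88, 0.80), Klf6 (0.87, 0.78), Ist1 (0.85, 0.72), Rhpn2 (0.84, 0.82), Map2k1 (0.84, 0.74), Pex5 (0.84, 0.75) and Entpd5 (0.84, 0.71). Dusp10 is a MAP kinase phosphatase, Klf6 a transcription factor of the early response and Map2k1 the kinase that activates ERK, and these 3 stand on the lists of related genes used below. Ifrd1 is a transcriptional coregulator induced by growth signals and Mir22hg hosts a microRNA. Leaving out the 2 libraries (succinate-treated male Ptk6-/- mouse 1 and male Ptk6-/- control 2) lowered r for all 10. The values are ranked from many genes and describe likeness only.

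Related genes of the pathway, taken from lists of general knowledge, were described beside the members. For genotype in control males, 15 of 19 other immediate early transcription factors had a positive fold change, with a median of 0.47 and 7 higher and 1 lower at an unadjusted p under 0.05. So did 21 of 26 effectors (median 0.45, 11 higher and 0 lower) and 16 of 17 feedback phosphatases and RNA decay genes (0.47, 8 higher and 0 lower). Other AP-1 and ATF genes were divided, with 11 of 19 positive and a median of 0.15, and the upstream kinases and serum response factors stood at 19 of 24 and 0.20. Each list is read beside the median of 0.02 over all genes. At that p, 25.2% of all genes tested passed. A gene of each of 3 lists rose past the threshold that 0.739% of all genes passed. They were Fosl2, a Fos relative, at 1.05 (SE 0.17, adjusted p = 0.0300), Klf10, a TGF-beta early gene, at 1.04 (SE 0.18, adjusted p = 0.0311), and Errfi1, a feedback inhibitor of the EGF receptor, at 1.10 (SE 0.18, adjusted p = 0.0300). Without wild type control 1 Klf10, at 0.91 (adjusted p = 0.0321), no longer reached 2-fold. Heat shock genes were even, at 8 of 16 and 0.04. The number of genes called in this comparison moved from 142 to between 2 (without Ptk6-/- control 3) and 211 (without wild type control 1) when single libraries were left out, and to 3 to 6 without wild type control 2 or 3 or Ptk6-/- control 2.

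For succinate in Ptk6-/- males none of the genes of these lists was called. Of the transcription factors 14 of 19 were negative (median -0.46), of the effectors 21 of 26 (-0.50) and of the feedback genes 13 of 17 (-0.34), against -0.10 over all genes. Of the upstream kinases and serum response factors 20 of 24 were negative (-0.27), and of the other AP-1 and ATF genes 10 of 20 (0.01). This comparison and that of the genotypes in control males share the male Ptk6-/- controls. For genotype in control females, where 8 of 10 members were negative, the feedback genes had 12 of 17 positive (median 0.27) and summed to 389 to 568 against 311 to 387 CPM. The effectors had 12 of 26 positive (-0.19) and summed to 1102 to 1588 against 1614 to 1984 CPM, so neither sum overlapped. The transcription factors had 10 of 19 positive (0.03), other AP-1 and ATF genes 8 of 19 (-0.10) and upstream kinases and serum response factors 17 of 24 (0.25), and none of the genes of the 5 lists was called. Averaged over sexes and genotypes, succinate gave 15 of 16 heat shock genes a positive fold change, with a median of 0.29 and 8 higher at an unadjusted p under 0.05, which 16.1% of all genes passed. None of them was called, and the smallest p were those of the chaperones Hsp90aa1 at 0.46 (SE 0.12, adjusted p = 0.0790) and Hspa8 at 0.47 (SE 0.14, adjusted p = 0.115). In that average, where 0.728% of genes were called, 3 genes of the marker lists rose past the threshold. They were Actc1, a heart actin, at 3.62 (SE 0.68, adjusted p = 0.00843), Actg2, a smooth muscle actin of the gut wall, at 1.12 (SE 0.26, adjusted p = 0.0355), and Clps at 2.06 (SE 0.44, adjusted p = 0.0239). Without the 3 libraries that stood apart Actc1 was 2.04 (adjusted p = 0.0147), Actg2 1.09 (adjusted p = 0.120) and Clps 1.87 (adjusted p = 0.111). Clps was also higher in females than in males, at 1.96 (SE 0.44, adjusted p = 0.0486) and 2.22 (adjusted p = 0.0705) without those libraries. The part of these cells in the members' values was not tested. The transcription factors (10 of 19 positive) and effectors (17 of 26) were divided in the averaged succinate comparison, as the members were with 4 positive and 6 negative.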

How the data were processed

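The authors deposited raw read counts per gene and FPKM values for 24 libraries of jejunal RNA, 1 mouse each, from stranded poly(A) libraries trimmed with Cutadapt, mapped with HISAT2 and quantified with StringTie and ballgown. The submitters' processing notes name GRCm39. The counting program and annotation release are not given in the sources used here. FPKM totals include 18S RNA, so FPKM understates other genes in the 2 libraries rich in it.

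The counts were tested with edgeR 4.0.16 (TMM scaling, quasi-likelihood F-test), beside DESeq2 1.42.0 and limma 3.58.1, in R 4.3.3. Each of 14 comparisons kept genes that reached 10 counts in 3 or more libraries of its fit, with Benjamini-Hochberg adjustment over all of them. DESeq2, the method named by the study, was an alternative, as were its size factors in edgeR, other filters, limma on log2(FPKM + 1) and log2(FPKM + 0.1) with a mean FPKM of at least 0.5, voom, a length offset, all libraries in 1 fit, and leaving out libraries. Gene length was taken from the ratio of deposited counts to FPKM. The p-values measure the spread between mice of a group. The members, lists and rules were chosen with earlier results of these data known. By rule, members under an unadjusted p of 0.05 or without overlap of libraries were given fold changes, and the others ranges. Further fold changes of members, such as those of Ier2 in males and of Dusp1 and Fos in wild type females for succinate, were chosen after their values were seen. From the lists, genes called were named, and from the heat shock list those with the smallest p in the averaged succinate comparison. The method was tested on simulated data with a smaller spread than the members' and no library apart in composition. How it performs on genes this variable was not tested. Other experiments of the study were not analysed here.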

Additional observations from a re-analysis of the deposited data

How the results depend on the processing

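The count of called members was 0 in all 14 comparisons and stayed at 0 in 10 of them under every alternative run. In control males it was 1 with DESeq2, with no filter on low counts, with at least 10 counts in every library and with limma on log2(FPKM + 0.1), 2 with voom, and 0 to 1 when single libraries were left out. In control females it was 0 to 1 when single libraries were left out. In succinate-treated males it was 2 with voom for the genotypes. For succinate in wild type males it was 1 with voom, and 0 to 1 when single libraries were left out. The cause was not tested. Of 530 values under alternatives for the 22 fold changes chosen by p or overlap, 522 kept their direction and side of the threshold, 8 passed it and 0 reversed. These fold changes were chosen in the same libraries, so that count is no independent measure of stability. Over all 140 member fold changes, 231 of 3404 alternative values had the other sign and 12 passed the threshold. The largest main size among those that turned was 0.71.

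The replicate block, a fit with the mouse number as a block, called 0 members in all 14 comparisons and put 8 members under an unadjusted p of 0.05 in control males, against 23.8% of genes. The numbers showed little pairing of the mice over all genes, where 2 of 24 pairs of the same number deviated together with a correlation over 0.1 (range -0.35 to 0.23). Shared handling of mice with the same number was not tested. Under the block, genes called were 5 in place of 142 in control males, 0 in place of 3 in control females, 0 in place of 17 for succinate in Ptk6-/- females and 4 in place of 0 for succinate in wild type females. The number of genes called by another setting reached 577 in control males, 1972 in control females, 1799 for genotype in succinate-treated males and 1498 for succinate in wild type males, all with voom, and 424 for succinate in Ptk6-/- females and 274 in wild type females with DESeq2. Leaving out female Ptk6-/- control 3 gave 1808 genes in control females, leaving out male wild type mouse 1 on succinate gave 1077 for succinate in wild type males, and leaving out female wild type mouse 3 on succinate gave 597 in wild type females. With 3 mice per group and the wide spread of these genes, differences near the size of the standard errors could not be resolved, and counts under 10 for Egr1 and Ier3 limit the shallowest library.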
